A study of Sus scrofa with 57 samples.

Results

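The libraries described here are the ribosome-depleted total RNA libraries of mature adipocytes from the 5 lean pigs, taken by their label as lean RNAseq samples, and they are 5 of the 11 RNAseq libraries and of the 57 samples of the series. The animals were male F2 pigs from an inter-cross of Duroc and Göttingen minipig, chosen as the lean extreme of their population, and the libraries are named by animal as pig-402, pig-407, pig-413, pig-525 and pig-577. About 15 g of retroperitoneal fat, the depot behind the abdominal lining around the kidney, was digested with 0.2% collagenase, passed through a 200 µm nylon filter, and the floating fat cells were collected for RNA. The RNA of each library came from the adipocytes of 1 animal, with no pooling and no second library of any of these animals, and the age of each animal is not given in the sources used here. All values describe lean animals alone, and no obese animal enters any of them.

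Mature adipocytes store triacylglycerol in a single large droplet. Fatty acids reach the droplet by uptake from lipoproteins and plasma and by synthesis from glucose inside the cell, which in pigs takes place mostly in adipose tissue, and they leave it by lipolysis under adrenergic and natriuretic control and under restraint by insulin. The nuclear receptor PPARG and the C/EBP factors hold this program in place, and the cell secretes leptin and other hormones. Digestion and flotation separate the fat cells from the vessels, immune cells and fibroblasts of the tissue, whose RNA may be carried along.

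Abundance is given as FPKM, the number of fragments of a gene scaled both to how long its transcript is and to how many fragments that library mapped, which allows levels to be compared between genes. FPKM values were divided by 1 size factor per library (range 0.884 to 1.14), and a level is the mean ± SD of the 5 animals. Where 5 values follow each other, they stand in the order pig-402, pig-407, pig-413, pig-525 and pig-577. The bounds that accompany each FPKM value correspond to about 16900000 to 24900000 fragments assigned to genes per library, lowest in pig-577 and highest in pig-402. At a mean FPKM of at least 1 the median error from these bounds was 4.44% of the value, and it covers counting and assignment error alone.

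Small RNA genes made up most of the summed FPKM and were set apart. They are 3316 of the 25285 genes, 2339 by their name and 977 because their locus is no longer than 350 bases, and they held 77.3% ± 5.57 of the sum (n = 5), from 67.9% in pig-402 to 82.1% in pig-577. Small nucleolar and Cajal body RNAs, which guide chemical changes of other RNAs, were the largest family with 33.1% ± 3.63 over 612 loci. Spliceosomal and U3 RNAs held 13.5% ± 1.97, ribosomal RNA 9.40% ± 2.15, and microRNA loci 0.0728% ± 0.0236. Such loci are about as long as a sequenced fragment or shorter, where the length correction of FPKM is least certain, so these shares are not shares of molecules.

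Of the 21969 remaining genes, 9809 had a mean FPKM of at least 1, 3062 of at least 10, 426 of at least 100 and 34 of at least 1000. 8680 genes reached 1 in every animal, and 3636 were listed at 0 in all 5. The abundance was concentrated in few genes. The 20 genes with the highest mean held 14.8% ± 1.80 of the summed FPKM, the 100 highest of each animal held 34.4% to 41.4%, and between 168 and 236 genes were enough for 50% of the sum. Pig-413 and pig-577 had the most concentrated profiles and pig-402 the most even one. The desaturase SCD has an estimate in pig-413 alone (1885). It counts in the sum and ranking of that animal only, so these shares are not fully alike between animals. Of the 100 highest genes, 64 were shared by all 5 animals, and pairs of animals shared 73 to 88 of them.

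**Figure D1:**
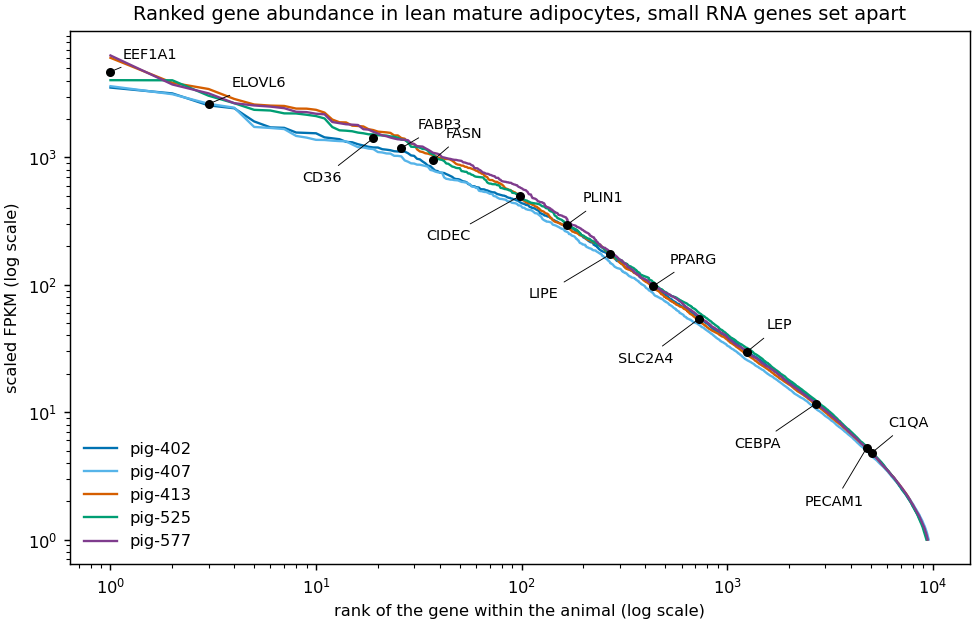
Scaled FPKM of each gene (vertical, log scale) against its rank within the animal (horizontal, log scale), with 1 line per animal and small RNA genes set apart. Black points mark the mean FPKM and mean-based rank of named genes. Only the line of pig-413 includes SCD, which has no estimate in the other animals. The 5 lines lie close together, with pig-402 and pig-407 lowest among the first 100 ranks, and the fat cell genes reach from ELOVL6 at 2626 to CEBPA at 11.7.

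Ribosomal proteins and fat cell genes shared the top of the ranking. EEF1A1, the elongation factor that brings transfer RNA to the ribosome, was the highest named gene at 4704 ± 1358, with 3529, 3618, 6042, 4025 and 6304 in the 5 animals. Cytosolic ribosomal proteins, found by name, were 15 of the 30 highest genes, led by RPS20 (2358 ± 639.8), RPS12 (2109 ± 432), RPS24 (2090.3 ± 465), RPS28 (1894 ± 538) and RPL39 (1866 ± 525.2). Further members were RPLP2, RPS27A, RPS18, RPS23, RPLP1, RPL6, RPL38, RPL22 and RPL24, with means between 1179 and 1551. All 84 loci so named held 18.1% of the summed FPKM.

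ELOVL6, which lengthens palmitate to stearate, stood at rank 3 with 3175, 3129.5, 1278, 3046 and 2501. By single locus it was the highest of the lipid metabolism genes with an estimate in all 5 animals, which leaves out the desaturase SCD. It was from 2501 to 3175 in 4 animals and near 1278 in pig-413. Other fat cell genes among the 30 highest were CD36, the fatty acid translocase of the plasma membrane (1414 ± 189), THRSP, a lipogenic nuclear protein listed as SPOT14 (1333 ± 511), DBI, which binds acyl-CoA (1293 ± 241), FABP3, a cytosolic fatty acid binding protein listed as H-FABP (1184 ± 546), and ACLY, which makes cytosolic acetyl-CoA from citrate (1136 ± 663). C10ORF116, an adipocyte-enriched gene also known as ADIRF, had 474, 1070.2, 2548, 2360.0 and 1586. It varied more than its neighbours in the ranking, with a coefficient of variation (CV, the SD as percent of the mean) of 54.1%.

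The iron storage light chain FTL (2378 ± 723), the lactate dehydrogenase subunit LDHB (1644 ± 719), the small protein SERF2 (1384 ± 185) and the glycolytic enzyme GAPDH (1116 ± 256) were also among the 30 highest. 3 of the 30 carry no name in the tables or the reference list. A gene with a name can have further loci: FABP3 was listed at 3 loci, THRSP and FASN at 2 each and LDHB at 3. Reads of near-identical copies may be split among them. The other FABP3 loci had means of 803 and 636, so the place of FABP3 below ELOVL6 holds for single loci only. Of the 334 symbols of the gene lists that were found, 25 had more than 1 locus. For such names the longest locus was taken. Where lengths were equal, the locus with the higher mean was taken, as for THRSP (1333, against 783 at the other). SAL1, a salivary lipocalin, ranked 34 with 40.2, 623, 1637, 160.0 and 2661. Its highest value was 66.2 times its lowest, the widest range among the 100 highest genes.

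The label of the cells was checked against 12 adipocyte identity markers, of which 9 have a row in the tables, and all 9 had a mean FPKM of at least 10. CD36 (chromosome 9, 110040077 to 110106938 of Sscrofa10.2, the build of the files) had 1237, 1336, 1663, 1564 and 1272. PLIN1, the perilipin that coats the droplet (chromosome 7, 60126614 to 60139897), had 278, 309.8, 308.2, 238 and 343. GPD1, which makes glycerol-3-phosphate (chromosome 5, 16330758 to 16334499), had 343, 311, 367, 523 and 305. All 3 were high in every animal, and their lowest values were at least 238.

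LIPE, the hormone-sensitive lipase (chromosome 6, 45444859 to 45454620), had 135, 168, 189, 118 and 257, and PPARG (chromosome 13, 75578055 to 75650239) had 116.1, 109, 108, 68.8 and 86.5. Both were lowest in pig-525, the animal in which GPD1 was highest. CIDEC, which fuses droplets, reached 497 ± 86.6 and PLIN4 131 ± 33.8. The remaining pair was lower and more variable, with leptin (LEP) at 49.6, 18.8, 7.52, 57.0 and 16.2 and CEBPA at 10.9, 17.4, 8.01, 8.11 and 14.0. The summed FPKM of the 9 markers was 3020.5 ± 250.0, and its CV of 8.28% was smaller than that of any single member. ADIPOQ, FABP4 and LPL have no row under their names and are not analysed here.

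Genes of the lipid droplet and of lipolysis were present in 14 of 17 measured members at a mean FPKM of at least 1. Among the perilipins the order was PLIN1, PLIN4, PLIN2 and PLIN3, in each animal without exception, and PLIN1 exceeded PLIN4 by 1.28 to 3.11 times. PLIN2, which coats smaller droplets in many cells, had 37.4, 74.3, 115, 78.6 and 54.96, whereas PLIN3 (1.86 ± 0.784) and PLIN5 (0.921 ± 0.494) were near the lower limit and had no fixed order between animals.

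Of the lipases, LIPE exceeded PNPLA2, the adipose triglyceride lipase listed as ATGL (52.9 ± 8.30), by 2.16 to 3.95 times. The monoglyceride lipase MGLL had 202, 120.3, 66.8, 80.2 and 90.5 and lay above LIPE in pig-402 alone. ABHD5, the activator of PNPLA2, had 33.6, 34.4, 107, 54.1 and 53.4, and G0S2, its inhibitor, had 12.3, 11.4, 36.6, 63.8 and 61.9. ABHD5 was highest in pig-413, and G0S2 was lowest in pig-402 and pig-407. AQP7, the channel through which glycerol leaves the cell, differed little between the animals (28.9 ± 2.28, CV 7.87%), and the seipin gene BSCL2 had 6.01 ± 0.772. CIDEB and FITM1, which other tissues use, had means of 0.00588 and 0.0193.

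**Figure D2:**
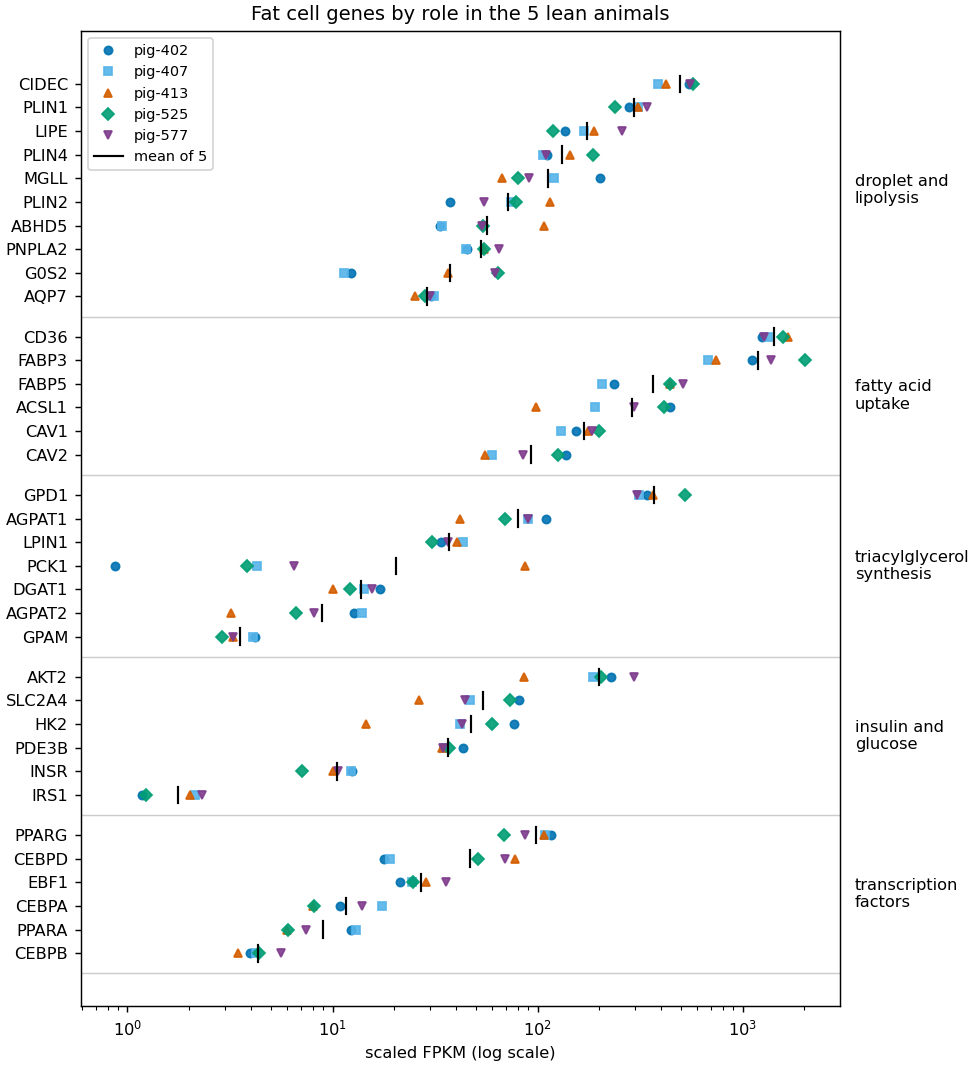
Scaled FPKM (horizontal, log scale) of fat cell genes grouped by role, with 1 symbol per animal and a black bar at the mean of the 5. CD36 and FABP3 are the highest, GPAM and IRS1 the lowest, and PCK1 shows the widest range, from 0.871 in pig-402 to 86.5 in pig-413.

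Among the 12 measured genes of fatty acid uptake and activation, CD36, FABP3, FABP5, ACSL1 and CAV1 had the highest means. FABP4, LPL, GPIHBP1 and PTRF of the same list have no row under their names. FABP3 had 1112, 675, 744, 2019.6 and 1370.2 and FABP5 237, 207, 440.3, 439.9 and 512. FABP3 exceeded FABP5 in 5 of 5 animals, by 1.69 to 4.69 times, and CD36 was the steadier gene, with a CV of 13.3% against 46.1% and 37.1%. ACSL1, the acyl-CoA synthetase of fat cells, had 442, 191, 98.5, 412 and 295 and exceeded ACSL4 (15.01 ± 3.94) and ACSL3 (7.08 ± 2.35) in every animal. The caveolins, which form the pits of the fat cell membrane, had 169 ± 27.4 for CAV1 and 92.6 ± 37.3 for CAV2. The fatty acid transporters SLC27A1 and SLC27A4 had means of 1.26 and 2.22, and ACSL5, with 2 loci, had 0.281.

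All 11 measured genes of triacylglycerol synthesis had a mean of at least 1, but their levels differed by over 2 orders of magnitude. GPD1 was followed by AGPAT1 (80.1 ± 25.8), LPIN1 (36.9 ± 5.17), GK (14.8 ± 6.01), DGAT1 (13.8 ± 2.76), AGPAT2 (8.92 ± 4.43) and GPAM (3.54 ± 0.561). AGPAT1 exceeded AGPAT2, both of which add the acyl chain to lysophosphatidic acid, in 5 of 5 animals by 6.44 to 13.1 times. LPIN1, a phosphatidate phosphatase, exceeded LPIN3 (2.19 ± 0.503) by 14.1 to 19.3 times. PCK1, the cytosolic PEPCK that feeds glycerol synthesis from pyruvate, had 0.871, 4.27, 86.5, 3.82 and 6.50. Pig-413 stood at 86.5 and the other animals from 0.871 to 6.50, so that its mean does not describe any of them, whereas the mitochondrial form PCK2 had 1.018 ± 0.479.

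Among the lists of fat cell function, de novo lipogenesis had the highest mean of the summed FPKM, and its sum was lowest in pig-413. In that animal the sum for fatty acid uptake and activation, without FABP4 and LPL, was slightly higher at 3225.8. The 15 measured members of de novo lipogenesis summed to 10875, 8646, 3220.2, 8385 and 7745 FPKM, or 2.93% of the total. Of the 13 members with a mean of at least 1, 12 were lowest in pig-413, where 21.2% of all genes at a mean of at least 1 were lowest, and the count was 12 with no scaling and with equal sums too. The exception was pyruvate carboxylase (PC), with 219, 295, 238, 172 and 275, which was lowest in pig-525.

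ACLY had 1913, 1027, 209, 1619 and 914. FASN, the fatty acid synthase, had 1194, 1262, 423, 627 and 1225 at its longer locus, and ACACA, which makes malonyl-CoA, had 291, 186, 83.8, 210.3 and 171. In each the value of pig-413 was below all others, and FASN was next lowest in pig-525. The malic enzyme ME1, a source of NADPH, had 1435, 543, 183, 484 and 407.1, with pig-402 far above and pig-413 below the rest. PGD of the pentose phosphate pathway had 152, 138, 63.1, 102 and 106 and was likewise lowest in pig-413. ACSS2, which activates acetate, ranged from 52.5 to 234, the citrate carrier SLC25A1 from 67.5 to 181, and ELOVL5 from 165 to 292, each lowest in pig-413.

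THRSP had 1704, 1473, 432, 1517 and 1539, and the carbohydrate-responsive transcription factor MLXIPL, listed as CHREBP, had 9.44, 7.66, 4.87, 6.23 and 8.35. The desaturases FADS1 and FADS2 had means of 0.148 and 0.518. SCD, the stearoyl-CoA desaturase, has a value in pig-413 alone (1885). In the other 4 animals it is listed at 0, marked as a locus with too many fragments to be estimated, which is no measurement. SCD therefore enters no list sum and no ranking by mean. Its value in pig-413 is part of the total and the ranking within that animal. PNPLA3, a lipase of lipogenic cells, ranged from 1.27 in pig-413 to 20.01 in pig-525.

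**Figure D3:**
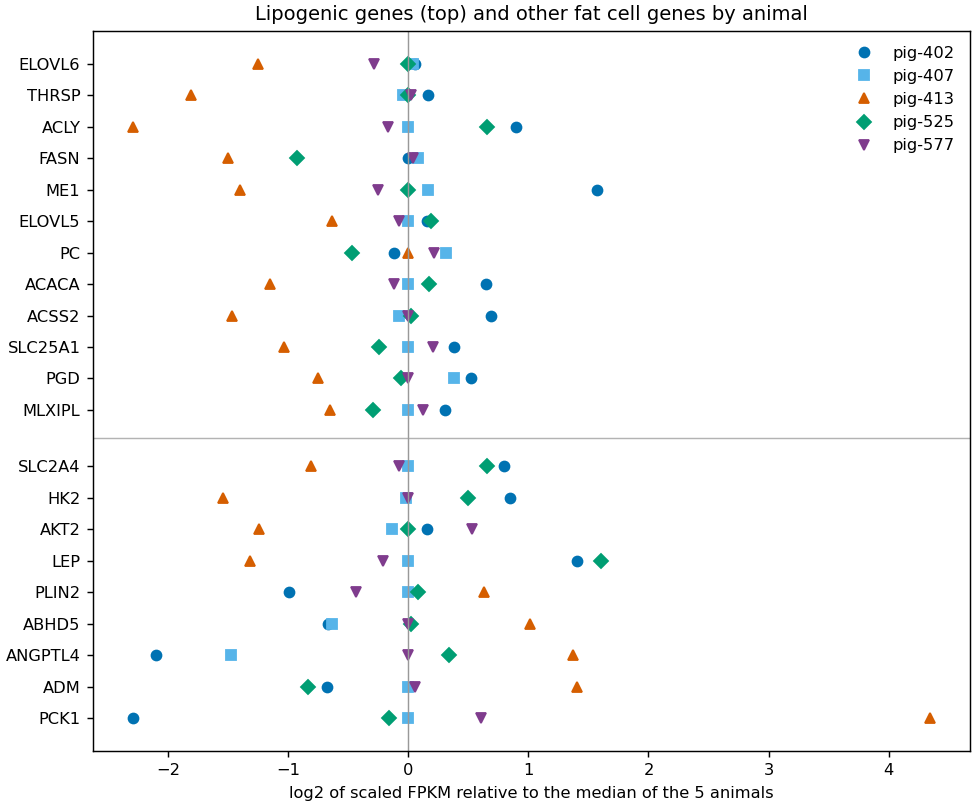
Log2 of the scaled FPKM of each animal relative to the median of the 5 (horizontal), for 12 genes of de novo lipogenesis with a mean of at least 1 (upper block) and for 9 other fat cell genes chosen after their values were seen (lower block). Pig-413 lies at the low end for the lipogenic genes shown other than PC, and at the high end for PLIN2, ABHD5, ANGPTL4, ADM and PCK1.

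Genes of insulin signalling and glucose uptake had lower levels, with 16 of 17 measured members at a mean of at least 1 and 10 at a mean of at least 10. INSR, the insulin receptor, had 10.5 ± 2.17 and IRS1 1.77 ± 0.530. The kinase AKT2 was the highest, with 227, 186, 85.9, 204 and 295. PDE3B, through which insulin restrains lipolysis, was the steadiest of the group (36.7 ± 3.68, CV 10.02%).

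The insulin-responsive glucose transporter SLC2A4 had 80.9, 46.6, 26.5, 73.3 and 44.1 and exceeded SLC2A1 (2.06 ± 0.663) by 14.2 to 43.6 times. HK2, the hexokinase of insulin-responsive tissues, had 76.5, 42.01, 14.6, 59.9 and 42.6, and HK1 had 75.3, 30.9, 17.2, 54.1 and 23.0. HK2 was the higher hexokinase in 4 of 5 animals, and pig-413 was lowest for AKT2, SLC2A4, HK2 and HK1. TRARG1, which takes part in transporter recycling and is listed as TUSC5, had 66.7 ± 18.6.

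Among receptors and effectors of lipolytic hormones, the coupling protein GNAS was highest (263 ± 36.0). The beta-adrenergic receptor ADRB1 had 0.531, 2.42, 1.93, 1.03 and 1.64, and ADRB3 was listed at 0 in all 5 animals. The natriuretic peptide receptor NPR1 had 31.7 ± 9.45 and exceeded the clearance receptor NPR3 (4.37 ± 1.82) by 4.98 to 12.7 times. Of the antilipolytic receptors, the adenosine receptor ADORA1 had 13.7 ± 1.81, the prostaglandin receptor PTGER3 5.74 ± 2.11, and the lactate receptor HCAR1, listed as GPR81, 7.17, 9.24, 31.2, 9.09 and 13.5, with pig-413 highest. PRKAR2B, the regulatory subunit of protein kinase A in fat, had 21.8, 53.7, 97.1, 27.98 and 37.3 and was highest in the same animal. ADRA2A was at 0.00254.

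Secreted products were led by APOE (729 ± 239), the antioxidant enzyme GPX3 (533 ± 119) and angiotensinogen (AGT, 193 ± 44.0), each with a CV of at most 32.8%. Other hormones and factors varied more. Leptin ranged from 7.52 to 57.0 and was highest in pig-525 and pig-402. ANGPTL4, an inhibitor of lipoprotein lipase, had 13.03, 19.99, 145, 70.4 and 55.8, and adrenomedullin (ADM) 65.1, 104, 276, 58.2 and 108. Both were highest in pig-413, as was VEGFA (15.9, 11.02, 35.9, 14.9 and 21.3).

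Lipocalin 2 (LCN2) had 74.3, 134, 7.40, 8.60 and 51.0, and retinol binding protein RBP4 had 14.4, 16.1, 48.8, 65.2 and 62.7, with the lowest LCN2 in pig-413 and pig-525 and the lowest RBP4 in pig-402 and pig-407. The chemokine CCL2 (12.2, 13.5, 9.95, 73.9 and 10.4) and the cytokine IL6 (1.38, 1.05, 2.64, 12.7 and 1.91) were both highest in pig-525. IGF1 had 33.5 ± 12.6 and NAMPT 33.2 ± 9.16. Adipsin (CFD), abundant in mouse fat, had 5.51 ± 2.70. RETN, SERPINA12 and C3 had means of 0.0103, 0.00291 and 0.158.

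PPARG was the highest of the 23 measured adipogenic factors and nuclear receptors, and it exceeded PPARA (8.95 ± 3.40) by 8.40 to 18.0 times. PPARD had 17.0, 7.32, 1.47, 11.04 and 5.20, and its order against PPARA differed between animals. Of the C/EBP factors, CEBPD had 17.9, 18.99, 78.0, 51.2 and 69.1, above CEBPA in 5 of 5 animals, and CEBPA was above CEBPB in 5 of 5. CEBPB is listed at 2 loci of the same length, each near 4.33, so the reads of the gene may be split between them. CEBPD was lowest in pig-402 and pig-407. KLF9 (33.8 ± 9.92), EBF1 (27.0 ± 5.61), the glucocorticoid receptor NR3C1 (14.3 ± 1.5999) and the liver X receptor NR1H3 (11.1 ± 2.40) followed. The estrogen receptor ESR1, listed as ER, is given as 4 entries. Its longest entry had 0.557, 0.625, 1.07, 0.617 and 0.762, while the sum of the entries (21.6, 1.59, 3.94, 33.8 and 81.2) rested mainly, in pig-402, pig-525 and pig-577, on an entry of 117 bases with 1 or 2 fragments, which was at 0 in the other animals. Its summed level is therefore no measure of a difference between the animals.

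Genes of brown and beige fat were mostly near 0, with 3 of 11 measured members at a mean of at least 1. PRDM16, PPARGC1A and ELOVL3 had means of 0.00198, 0.00238 and 0.00257, and ZIC1 was listed at 0 in every animal. The members above 1 were COX7A1, a respiratory subunit also found in muscle (332 ± 77.6), UCP3 (16.5, 38.7, 34.9, 11.5 and 22.0) and EBF2 (3.97 ± 1.09). UCP3 exceeded UCP2 (0.352 ± 0.295) in 5 of 5 animals. UCP1 has no row under its name.

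Of 17 measured patterning genes, which record the position of a depot along the body, 4 had a mean of at least 1: HOXD8 (13.3 ± 2.91), HOXB7 (4.06 ± 1.21), HOXA5 (3.15 ± 0.327) and HOXA9 (1.14 ± 0.330). TBX15, EN1 and WT1 had means of 0.330, 0.238 and 0.281.

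Fat cells are enclosed by a basement membrane, and all 14 members of that list had a mean of at least 1. SPARC, a matricellular protein, had 422, 264, 159.8, 278 and 366. Of collagen IV, COL4A1 (87.8 ± 16.8) exceeded COL4A2 (40.6 ± 11.9) in 5 of 5 animals by 1.87 to 2.52 times. The laminin chains LAMA4 (44.0 ± 12.8), LAMC1 (42.7 ± 7.58) and LAMB1 (25.9 ± 9.51) stood at similar levels, LAMA4 and LAMC1 without a fixed order, and NID1 had 23.3 ± 5.97. Collagen VI was lower, with COL6A1 at 4.15 ± 3.55 and COL6A3 at 3.83 ± 0.764. Pig-413 was lowest for 8 of the 14 members, against 21.2% of all genes at a mean of at least 1.

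Traces of other cells were small for vessels, blood and immune cells and larger for the fibroblast list. In whole libraries of a cell preparation, fewer cells of a type and less RNA per cell cannot be told apart. The summed FPKM of the 12 lists of other cells was 25.9% ± 9.02 of that of the adipocyte markers, and it was 11.4% without COL3A1, a collagen of fibroblasts that alone had 532, 538, 212, 347 and 511. The median member of all these lists had a mean FPKM of 0.20002, against 173 for the adipocyte markers.

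Fibroblast genes above 10 were, after COL3A1, DCN (61.3, 65.4, 15.1, 71.9 and 92.5), COL1A2 (27.4, 28.7, 3.22, 27.0 and 31.1), FAP (22.2, 17.8, 27.7, 18.3 and 29.96), COL1A1 (12.4, 21.8, 1.05, 8.47 and 20.2) and FBN1 (16.7, 10.5, 5.43, 8.61 and 13.4). The progenitor markers PDGFRA (0.125 to 1.61), CD34 (0.549 to 1.39) and DPP4 (0 to 0.0294) were low, and DLK1 was listed at 0 in all animals. Pig-413 was lowest for 9 of the 10 fibroblast genes with a mean of at least 1, against 21.2% of all genes at that level. COL1A1 there was 1.05 against 8.47 to 21.8, and FAP was the exception.

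Of 14 endothelial markers, PECAM1 (6.25, 9.57, 1.348, 6.46 and 2.64) and EGFL7 (2.40 ± 0.997) had a mean of at least 1, whereas KDR (0.0427 to 1.06) and VWF (0.0558 to 0.721) stayed at or under 1.06 in every animal. All endothelial markers together were 0.0958% to 0.737% of the adipocyte sum, lowest in pig-413 and highest in pig-407. Pericyte and smooth muscle markers gave 0.232% to 0.521%, with TAGLN highest (6.50 ± 1.45) and MYH11 at 0.0211.

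Myeloid markers were 1.097% to 1.91% of the adipocyte sum. S100A8 (15.3, 10.3, 13.9, 21.5 and 23.1) and S100A9 (4.01, 3.59, 10.6, 5.49 and 13.4), of neutrophils and monocytes, led this list, followed by the macrophage complement genes C1QC (6.84, 7.53, 2.47, 7.32 and 5.73) and C1QA (4.87, 5.69, 2.297, 6.31 and 4.87). CD14 had 2.08 ± 0.746, CD68 0.260 ± 0.0955, and CD163 was listed at 0 in every animal.

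In the lymphocyte list 1 gene of 16 stood out. CD247, the zeta chain of the T cell receptor complex and listed as CD3Z, had 40.9, 33.2, 44.1, 41.6 and 36.7, while the other chains CD3D, CD3E and CD3G had means of 0.0873, 0.0640 and 0.0779, and PTPRC, the pan-leukocyte marker, 0.429 ± 0.253. The level of CD247 was thus not accompanied by the genes that define T cells.

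Haemoglobin beta (HBB) had 41.2, 38.8, 13.6, 17.2 and 83.4 and haemoglobin alpha (HBA) 8.12, 7.20, 2.27, 4.94 and 18.1, with the same animals highest and lowest, pig-577 and pig-413. KIT, of mast cells and progenitors, had 0.165, 1.105, 6.31, 0.275 and 1.92, while FCER1A had a mean of 0.0635 and HDC of 0.0113. No member of the mesothelium, skeletal muscle or Schwann cell lists reached a mean of 1. Retroperitoneal fat adjoins the kidney and adrenal gland, and 6 of the 8 measured markers of these organs had means of at most 0.0237, SLC12A1, CYP11A1 and CYP17A1 among them. The remaining markers, STAR (6.86, 0.978, 5.03, 2.10 and 22.8) and HSD3B1 (0.232, 4.55, 9.49, 4.43 and 9.31), act in steroid synthesis. Of 11 genes of dividing cells, CCNB2 alone had a mean of at least 1 (3.12 ± 1.295), and MKI67 had 0.0142.

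**Figure D4:**
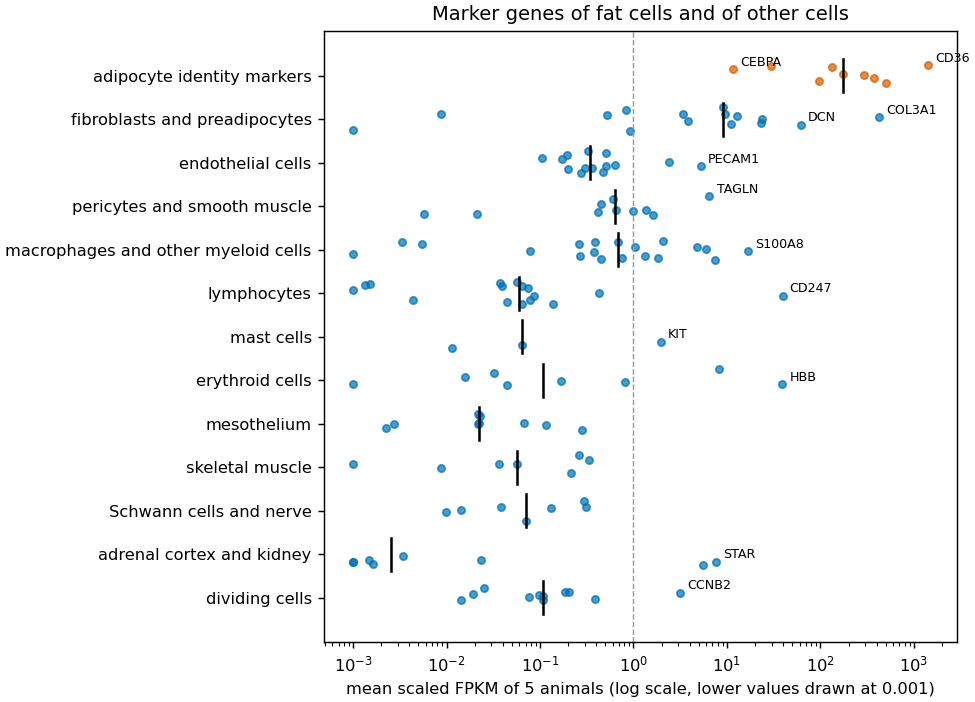
Mean scaled FPKM of the 5 animals (horizontal, log scale, with values under 0.001 drawn at 0.001) for each measured gene of 13 marker lists. Points are genes, black bars the medians of the lists, and the dashed line marks an FPKM of 1. All 9 adipocyte markers lie above 10, and most genes of the other lists lie below 1, with COL3A1, DCN, CD247 and HBB farthest above it.

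Genes of the response to dissociation and stress were abundant. Of the 22 measured, 16 had a mean of at least 10 and together they held 0.747% of the summed FPKM, a share close to that of the secreted factors (0.709%). FOS had 301, 191, 643, 439.8 and 643, BTG2 214, 134, 544, 496 and 576, DUSP1 169, 114, 332, 293 and 294, and JUNB 83.6, 60.8, 212, 136 and 256. In each of these genes, which are induced within minutes of handling cells, pig-402 and pig-407 were the lowest animals. That order held for 13 of the 19 members with a mean of at least 1, against 18.6% of all genes at that level, and for 13 with no scaling and with equal sums. ATF3 (19.3, 23.9, 70.9, 61.2 and 66.4) and IER3 (55.9, 24.7, 213, 186 and 126) followed it, and the chaperones HSPA8 (143, 64.6, 28.2, 243 and 66.8) and HSPB1 (66.8, 35.8, 22.7, 57.7 and 40.6) did not. NR4A1, EGR2 and EGR3 had means of 0.219, 0.302 and 0.0336.

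Ribosomal proteins were ordered likewise. Their summed FPKM was 36461, 38069, 60151, 50754 and 60443, and pig-402 and pig-407 were the lowest animals for 67 of the 72 loci with a mean of at least 1, for 66 with no scaling and for 42 with equal sums. Of all genes at that level, 18.6% had this order with size factors, 14.0% with no scaling and 6.91% with equal sums. Pig-402 was also the animal with the smallest share of small RNA and the most fragments, and the part of either in this order was not tested. The nuclear genes of the respiratory chain, 5.70% of the summed FPKM, differed less, with sums of 16392, 13592, 13887, 16068 and 16792 and a CV of 9.73%.

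The spread between the animals was wider than the error of the single estimates. Over the 9809 genes with a mean of at least 1 the median CV was 20.4%, with quartiles of 14.1% and 30.4%. It exceeded the error from the bounds in 97.4% of these genes. The median CV was 24.7% at an FPKM of 1 to 2, 18.6% at 5 to 10 and 26.9% in the 34 genes above 1000, while the error declined from 8.34% to 0.660%. Of the 3062 genes with a mean of at least 10, 814 differed at least 2-fold between the highest and lowest animal, 181 had a CV of at least 50%, and 290 had a CV under 10%.

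Fat cell genes did not share one spread. Among their members with a mean of at least 1, the median CV was 24.2% for the identity markers, 27.8% for insulin signalling, 29.5% for droplet and lipolysis, 38.3% for de novo lipogenesis and 49.5% for secreted factors. All of these lie above the median of all genes, which is not particular to fat cell genes. The fibroblast list (48.0%) and the dissociation response (46.1%) also lay above it. Nuclear genes of the respiratory chain (17.3%) and mitochondrial ribosomal proteins (16.1%) lay below it. Common reference genes had a median of 20.6%. TBP (4.74 ± 0.406) and YWHAZ (402.5 ± 40.8) were the steadiest of them, whereas ACTB (511, 313, 383, 622 and 476) and GAPDH (1388, 1352, 826, 895 and 1120.2) had CVs of 25.8% and 22.9%.

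The 12 named genes with the highest CV at a mean of at least 10 were mostly raised in a single animal. Choosing by CV favours genes raised in few animals, so this pattern follows largely from the choice. PCK1, PENK, SLPI and SLA-5 had medians of 4.27, 1.52, 5.02 and 8.43 and passed the limit of 10 through their highest animals. PCK1, with a CV of 182%, was high in pig-413. CXCL2 (10.98, 13.8, 4.05, 77.8 and 10.5), CCL2, the regulator of G protein signalling RGS16 (7.20, 5.12, 18.7, 65.1 and 14.0) and the class I histocompatibility gene SLA-5 (5.04, 15.9, 8.43, 58.0 and 5.01) were highest in pig-525. Dermatopontin (DPT, 8.06, 6.44, 21.9, 36.5 and 114) and the sterol hydroxylase CYP27A1 (2.42, 1.70, 10.6, 11.9 and 37.0) were highest in pig-577, as was the summed ESR1, with the short entry described above, and the creatine kinase CKB (189.9, 39.1, 21.9, 19.9 and 42.2) in pig-402. The proenkephalin gene PENK (1.52, 1.204, 0.985, 35.8 and 23.9) was high in pig-525 and pig-577, and the protease inhibitor SLPI (5.02, 44.2, 1.68, 30.4 and 0.312) in pig-407 and pig-525. Of the 3 loci named HBXIP, 1 was listed at 186 in pig-407 and at 0 in the other 4 animals, with an error from its bounds as large as the value, and no mean is given for it. The longest of the 3 had 43.8 to 52.7 in the 4 other animals and 42.4 in pig-407.

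At the other end, CUTA (45.6, 47.0, 47.7, 47.6 and 46.8) had the lowest CV, 1.76%. ACADM, the medium-chain acyl-CoA dehydrogenase of fatty acid oxidation, had 65.1, 69.1, 68.5, 67.9 and 65.8, and BRK1, of the actin-regulating WAVE complex, 203, 207, 213, 213 and 213. The other 9 were MRPL4, TOX4, C16ORF42, ZC3H11A, DPCD, C19ORF50, ARIH2, REEP3 and MIB1, with CVs up to 3.88% and means between 11.8 and 32.1.

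**Figure D5:**
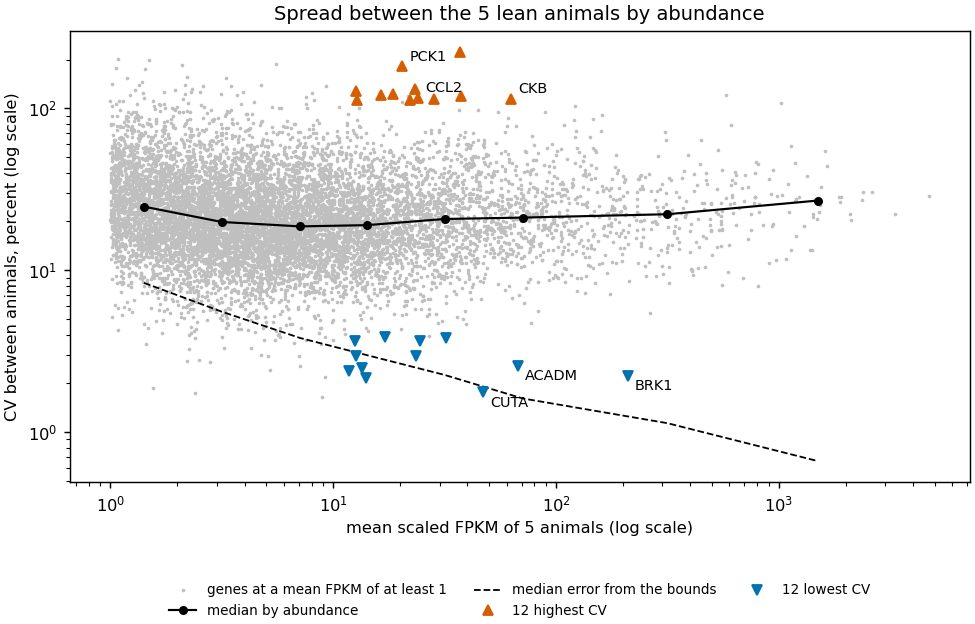
CV between the 5 animals in percent (vertical, log scale) against the mean scaled FPKM (horizontal, log scale). Grey points are genes with a mean of at least 1, the solid line joins the median CV of abundance classes and the dashed line the median error from the bounds, and triangles mark the 12 named genes with the highest and lowest CV at a mean of at least 10. The median CV lies above the error in every class and is highest, at 26.9%, above an FPKM of 1000.

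Between pairs of animals, 3.59% to 12.1% of the genes with a mean of at least 10 differed at least 2-fold on the log2(FPKM + 1) scale. By this count the closest pair was pig-402 and pig-407 (110 genes) and the most distant pig-402 and pig-413 (371 genes). The order depended on the measure. By the median absolute log2 difference, pig-413 and pig-577 were closest (0.23, against 0.26 for pig-402 and pig-407) and pig-407 and pig-525 most distant (0.40, against 0.38 for pig-402 and pig-413), and by shared genes of the 100 highest pig-407 and pig-577 were closest (88).

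Which animal was highest or lowest most often depended on the scaling. With size factors, pig-525 was highest in 31.4% of these genes and pig-407 lowest in 34.7%. With no scaling these shares were 47.4% and 40.8%. With equal sums they were 23.7% and 12.1%, and pig-402 was then highest most often (30.3%) and pig-413 lowest (28.6%).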

How the data were processed

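RNAseq libraries of 5 lean pigs were analysed. Per the labels and the study's methods, the authors prepared ribosome-depleted stranded total RNA libraries from 0.5 µg of RNA with 100 bp paired-end reads, mapped them to Sscrofa10.2 with STAR 2.3.1, estimated FPKM with Cufflinks 2.2.0 and compared groups with Cuffdiff. Trimmomatic 0.22, Bismark 0.10 and Bowtie2 2.1.0 served the methylation assays, which are not used here. The deposited FPKM tables give an FPKM value with lower and upper bounds for each of 25337 entries, which were summed over 25285 gene identifiers. Sequencing lanes of single libraries are not given in the sources used here, and no mitochondrial gene is in the tables.

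Names came from the tables for 17794 genes and from a reference list for 1157, and 6334 had none. Values marked as failed (6 genes, among them SCD and IL6ST) were left out. Size factors were medians of ratios over 14933 genes above 0 in every library. The fragment number of a gene was taken as the square of 2 times the FPKM over the distance to its upper bound. Of numbers up to 20, 67.6% came out whole within 0.02, so the depth is an approximation. The scaling and CV were tested on simulated data with known values.

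With 1 group, no test was made and no p-value is given. The spread is that between 5 animals with 1 library each. The members, the 26 gene lists and the naming rule were chosen with earlier results of these data known. The rule takes the 30 genes with the highest mean, members of the lists (334 of 371 symbols found, 9 through another spelling), and the 12 named genes each with the highest and lowest CV at a mean FPKM of at least 10. Families found by name, such as ribosomal proteins, and SAL1 were added after their values were seen. Values of some genes are not reported here. Alternatives were other scalings, name families alone for small RNA, other thresholds, pseudocounts of 1 and 0.1 and leaving out each animal. Python 3.11.15, numpy 2.4.6, pandas 2.3.3 and matplotlib 3.10.9 were used. The columns of the authors' group comparison and the files of the other assays and groups were not used.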

Additional observations from a re-analysis of the deposited data

Results flagged for a closer look

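Among 227 named genes and 31 list sums, a single animal stood apart where its gap to the nearest other animal was over 0.71 of the range of the 5. Chance gives such a gap in about 1 in 20 groups of values. Over the 3062 genes whose mean reached an FPKM of 10, 155 (5.06%) had one, so the number of such genes in these libraries is close to that share. By animal these 155 were 59 in pig-525, 45 in pig-413, 26 in pig-402, 18 in pig-577 and 7 in pig-407. Of the 227 named genes, 31 had such a gap. Some of the 31, such as PCK1, CCL2 and CKB, belong to the 12 named genes with the highest CV, a choice that favours such gaps. Others had means under 10, which the 5.06% does not cover.

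Pig-402 was above the other 4 animals for CKB at 189.9 (others 19.9 to 42.2), CYP17A1 at 0.00734 (others 0 in all), DPP4 at 0.0294 (others 0 to 0.00488) and ME1 at 1435 (others 183 to 543). Pig-407 was above the other 4 animals for HBXIP at 186 (others 0 in all), MKI67 at 0.0445 (others 0 to 0.0113), MYH11 at 0.0684 (others 0 to 0.0166) and SERPINA12 at 0.0146 (others 0 in all). Pig-413 was above the other 4 animals for ABHD5 at 107 (others 33.6 to 54.1), ADM at 276 (others 58.2 to 108), CYP11A1 at 0.0171 (others 0 in all), HCAR1 at 31.2 (others 7.17 to 13.5), KIT at 6.31 (others 0.165 to 1.92), PCK1 at 86.5 (others 0.871 to 6.50) and the mast cells list (sum) at 6.31 (others 0.225 to 1.95). That sum is KIT alone in pig-413, where the mast cell markers FCER1A and HDC were listed at 0. Pig-413 was below the other 4 animals for COL1A2 at 3.22 (others 27.0 to 31.1) and THRSP at 432 (others 1473 to 1704). Pig-525 was above the other 4 animals for ADRA2A at 0.0127 (others 0 in all), CCL2 at 73.9 (others 9.95 to 13.5), CXCL2 at 77.8 (others 4.05 to 13.8), ELOVL3 at 0.0128 (others 0 in all), GPD1 at 523 (others 305 to 367), IL6 at 12.7 (others 1.05 to 2.64), RETN at 0.0517 (others 0 in all), RGS16 at 65.1 (others 5.12 to 18.7) and SLA-5 at 58.0 (others 5.01 to 15.9). Pig-525 was below the other 4 animals for the dividing cells list (sum) at 2.25 (others 4.61 to 5.42). Pig-577 was above the other 4 animals for COX7A1 at 467 (others 269 to 312), CYP27A1 at 37.0 (others 1.70 to 11.9), DPT at 114 (others 6.44 to 36.5), EGR2 at 0.566 (others 0.192 to 0.265), SLC27A1 at 2.89 (others 0.566 to 1.16) and STAR at 22.8 (others 0.978 to 6.86). Where the others are at or near 0, the value rests on very few fragments.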

How the results depend on the processing

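The count of genes at a mean FPKM of at least 1 was 9824 with no scaling and 9852 with equal sums. The median CV was 23.2% and 21.5%. The shares are ratios within a library, so scaling cannot change them. With name families alone, small RNA held 75.9% and the 20 highest genes 15.8%. Leaving out each animal in turn gave 76.2 to 79.7% for the share of small RNA and 9736 to 9861 genes at a mean FPKM of at least 1. It gave 14.4 to 15.4% for the 20 highest genes and 9 adipocyte markers in each case. The lists of other cells came to 24.0 to 29.2% and the median CV to 18.8 to 21.0%. The highest value for other cells was that without pig-413. Values that moved did so by the construction of the alternative. At a threshold of 5 the count was 4925 genes. The 10 and 100 highest genes held 9.31% and 37.1%. The lists of other cells came to 0.0932% with medians in place of sums and to 11.4% without COL3A1, the last chosen after seeing the data. The median CV was 32.3% with no filter on low values. Equal sums moved all genes of pig-407 by 0.21 and of pig-577 by -0.11 on the log2 scale relative to the size factors. Of 1816 alternative means of named genes, 1802 moved by less than 1 SD. No paired analysis was possible because there is 1 group. Genes under an FPKM of 1 rest on few fragments, and the depth limits their order.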

Other observations

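Further genes among the 100 highest, chosen after their values were seen, belong to defence against oxidants and to iron storage. SOD1 had 517, 669, 1054, 701 and 948, catalase (CAT) 617, 636, 743, 731 and 740.2, PRDX2 from 444 to 612 and the ferritin heavy chain FTH1 899, 679, 707, 869 and 1077. The lowest of these values was that of PRDX2 in pig-407. Carbonic anhydrase 3 (CA3), abundant in fat and muscle, had 638, 479, 459, 839 and 744, glutamine synthetase (GLUL) 260.2, 206, 874, 563 and 759, the retinol saturase RETSAT 562, 661, 556, 398 and 605 and TXNIP, which responds to glucose, 501, 308.1, 759, 695 and 955.

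The 68 mitochondrial ribosomal proteins summed to 1278, 1081, 1288, 1500.5 and 1388 FPKM and the 34 proteasome loci to 1285, 1081, 1205, 1714 and 1314, with the highest sum in pig-525 in both. Of 183 olfactory receptor loci, which fat cells are not known to use, 137 were listed at 0 in every animal and the highest mean was 0.0838.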
